A study of Homo sapiens with 27 samples.

Results

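The response to IPI-9119, a small molecule that blocks fatty acid synthase, was compared between 2 castration-resistant prostate cancer cell lines, LNCaP95 and 22Rv1. For each gene the quantity of interest was the difference of 2 effects, the log2 change between 500 nM IPI-9119 and the vehicle DMSO in LNCaP95 minus the same change in 22Rv1. It drew on 12 of the 27 RNA sequencing libraries of the study, in 4 groups of 3: LNCaP95 cells with 500 nM IPI-9119, LNCaP95 cells with DMSO, 22Rv1 cells with 500 nM IPI-9119 and 22Rv1 cells with DMSO. Drug or vehicle stayed on the cells for 6 days and the medium was not replaced, per the labels' protocols. Libraries of the parental line LNCaP and of the 100 nM dose were used only where named. A gene entered the test where at least 3 of the 6 libraries of LNCaP95 and at least 3 of the 6 of 22Rv1 held a normalised read count of 10 or more. This left 11921 of 20987 genes, while 736 genes passed in LNCaP95 only and 1498 in 22Rv1 only. Both cultures are established lines, so each stands for 1 tumour. The sources used here do not give the medium of each line and do not say whether the 3 libraries of a group were separate cultures, so the spread behind each p-value, that between libraries of a group, may be only technical.

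Fatty acid synthase, encoded by FASN, builds palmitate from acetyl-CoA and malonyl-CoA. Its gene and most other genes of lipid synthesis are driven by the SREBP transcription factors, which the cell releases when sterols or unsaturated fatty acids run short. Prostate cancer cells make much of their fatty acid themselves, and androgens raise lipid synthesis in them. LNCaP95 is a derivative of LNCaP that grows without androgen, and 22Rv1 came from a relapsed xenograft. A second programme that reacts to a shortage of nutrients or to stress of the endoplasmic reticulum (ER) runs through the transcription factor ATF4, which raises genes of amino acid uptake and synthesis and, with DDIT3 and TRIB3, genes tied to arrest and death.

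The 12 libraries held 15073809 to 23565696 reads in genes, and 1 read was worth 0.759 to 1.32 normalised units. Replicate 2 of LNCaP95 with 500 nM stood apart with 6.92% of its counts in mitochondrially encoded genes (1.78% to 4.11% in the other 11 libraries), as did replicate 2 of LNCaP95 with 100 nM, with 7.56%, and replicate 3 of 22Rv1 with DMSO had 18444 genes above 0 (15115 to 15860 in the others). Of 12 luminal prostate markers, all averaged 10 or more in every group. None of 5 basal markers was tested, with summed levels of 1.76 to 12.4 in any library. Among blood and endothelial markers PECAM1 was at 0 in all 12 libraries, and among stromal markers THY1 was. Other stromal markers were present. In LNCaP95, LUM averaged 1025 with 500 nM and 1333 with DMSO, and COL1A1 688 and 735. In 22Rv1, COL1A1 averaged 235 with 500 nM and 225 with DMSO, ACTA2 161 and 128, and LUM 77.4 and 103. The 8 stromal markers summed to 1622 to 2105 in LNCaP95 with 500 nM, against 1967 to 2382 with DMSO, and to 443 to 548 in 22Rv1 with 500 nM, against 498 to 549.7 with DMSO. The 8 blood and endothelial markers summed to 82.0 to 162 in LNCaP95 with 500 nM, against 97.9 to 119.7 with DMSO, and to 42.0 to 51.8 in 22Rv1 with 500 nM, against 44.5 to 68.1 with DMSO. In LNCaP95 this sum was mostly PTPRC, which marks blood cells, at 83.1, 139 and 65.4 normalised counts with 500 nM, against 93.3, 99.4 and 66.0 with DMSO. The summed level of 11 neuroendocrine markers was 977 to 1259.9 in LNCaP95 with 500 nM and 904 to 1128 with DMSO, and 6645 to 6977 in 22Rv1 with 500 nM and 7007 to 7370 with DMSO. The summed level of 12 liver-type genes was 299.6 to 378 in LNCaP95 with 500 nM, against 270.0 to 306 with DMSO, and 3278 to 3496 in 22Rv1 with 500 nM, against 13684 to 16024 with DMSO. Nearly all of the 22Rv1 sum was ALB, albumin, which was under 10 on average in LNCaP95 and could not be tested.

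The effects of the drug differed between the lines at 3414 of the 11921 genes, 28.6% of those tested (limma, two-sided, Benjamini-Hochberg adjusted p under 0.05). The effect was higher in LNCaP95 than in 22Rv1 at 1678 genes (14.1%) and lower at 1736 (14.6%). At 756 of the genes the difference was 2-fold or more. The median difference over all genes was 0.0096 on the log2 scale. Without the 2 libraries that stood apart, 2845 genes were called, 1388 higher and 1457 lower. Within LNCaP95 the same fit called 5524 genes (46.3%), of which 2906 rose (24.4%) and 2618 fell (22.0%). Within 22Rv1 it called 1456 genes (12.2%), of which 810 rose (6.79%) and 646 fell (5.42%). That last split depended on the scaling: with libraries scaled to the same total, 469 genes rose and 1210 fell in 22Rv1. The 1456 ranged from 862 to 1780 with a library left out, with 862 and 882 without 22Rv1 replicate 1 and 2 with 500 nM, and became 3182 with array weights, which give less weight to libraries with more spread. These within-line counts do not test a difference between the lines; the count of 3414 does.

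Most called differences were at genes whose own change passed the threshold in LNCaP95 and not in 22Rv1. This was so for 2575 of the 3414, or 75.4%. The reverse, a change called in 22Rv1 and not in LNCaP95, held for 264. At 190 genes both lines changed in the same direction, with the larger effect in LNCaP95 at 176 and in 22Rv1 at 14. At 141 genes the lines changed in opposite directions, 71 of them up in LNCaP95 and down in 22Rv1. The count of 141 moved with the libraries and weights used: it was 81, 70 or 89 without 22Rv1 replicate 1, 2 or 3 with 500 nM, 84 without 22Rv1 DMSO replicate 2, 209 without 22Rv1 DMSO replicate 1 and 475 with array weights. The remaining 244 were called in neither line alone. Over all genes tested, 752 changed in the same direction in both lines, and at 562 of these the difference between the lines was not called.

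**Figure D1:**
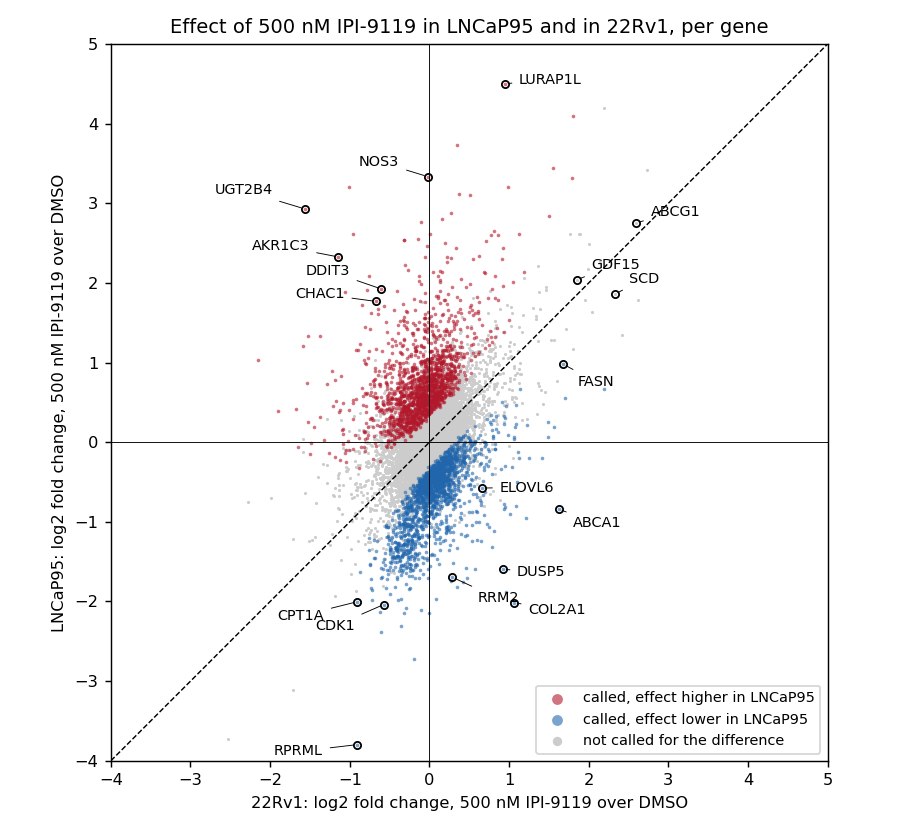
Log2 fold change of each of the 11921 genes between 500 nM IPI-9119 and DMSO in LNCaP95 (vertical axis) against the same in 22Rv1 (horizontal axis), with genes called for the difference in red (1678, effect higher in LNCaP95) or blue (1736, effect lower). The called genes spread mainly along the vertical axis, and ABCG1 and SCD lie near the dashed line of equal effects, while UGT2B4 and ABCA1 lie in quadrants of opposite sign.

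Among lists with 7 or more tested members, the ATF4 and amino acid response had the largest positive median difference. Of 36 tested members of 37 listed, 30 had a higher effect in LNCaP95 and 0 a lower one, with a median difference of 1.07 on the log2 scale (all genes 0.0096, 14.1% called higher). Within LNCaP95, 34 of the 36 rose, against 24.4% of all genes. Within 22Rv1, 3 rose and 4 fell, against 6.79% and 5.42% of all genes. The 4 became 1 or 2 when any 22Rv1 library with 500 nM or DMSO replicate 1 or 2 was left out. Without the libraries that stood apart the count was 32 of 36 and the median 1.21.

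ATF4, the factor itself, held 18195, 16587 and 17572 normalised counts in the 3 LNCaP95 libraries with 500 nM, against 9700.4, 8479 and 8053 with DMSO. In 22Rv1 it held 12808, 13538 and 13881 with 500 nM, against 16134, 15217 and 12370.3 with DMSO. So the groups were apart in LNCaP95 and overlapped in 22Rv1, and the effects differed by 1.11 ± 0.14, adjusted p = 5.79e-05. DDIT3, also called CHOP, a factor that ATF4 induces and that promotes cell death, had 3724, 2990.4 and 3414 in LNCaP95 with 500 nM and 1184, 700.5 and 836 with DMSO. Its 22Rv1 values were 845, 906 and 951 with 500 nM and 1668, 1625 and 944 with DMSO. The gene rose in LNCaP95 and fell in 22Rv1 (1.92 ± 0.19 and -0.60 ± 0.19), and in 22Rv1 DMSO replicate 3 lay within the treated values. The difference was 2.53 ± 0.27, adjusted p = 1.41e-05. CHAC1, an enzyme that degrades glutathione, held 1130.4, 950.1 and 912 in LNCaP95 with 500 nM, against 427, 201 and 287 with DMSO, and 267, 293 and 343 in 22Rv1 with 500 nM, against 472, 624 and 365 with DMSO. Its effects differed by 2.43 ± 0.31, adjusted p = 5.08e-05, although in 22Rv1 alone its change of -0.67 was not called (adjusted p = 0.0538).

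Other members also had a higher effect in LNCaP95. TRIB3, a pseudokinase that feeds back on ATF4 signalling, differed by 1.43 ± 0.23, adjusted p = 0.000253, and ATF3, a stress-induced repressor, by 2.06 ± 0.18, adjusted p = 4.79e-06. The mTORC1 inhibitors SESN2 and DDIT4 differed by 2.10 ± 0.26 and 2.10 ± 0.30. Among amino acid transporters, SLC3A2, the shared heavy chain, held 21812, 16653 and 19059.7 in LNCaP95 with 500 nM, against 5608, 5455 and 5545 with DMSO, and 9738, 9121 and 10423 in 22Rv1 with 500 nM, against 9064, 9556 and 7278 with DMSO. Every treated LNCaP95 library lay far above the DMSO libraries of that line, while the 22Rv1 groups overlapped. Its light chain partners SLC7A5 and SLC7A11, the cystine importer, differed by 1.21 ± 0.25 and 1.47 ± 0.44, and SLC7A11 was not called without 22Rv1 replicate 1 with 500 nM. Among synthesis enzymes, ASNS (asparagine) differed by 0.91 ± 0.18, adjusted p = 0.00117, PSAT1 (serine) by 0.93 ± 0.15, CTH (cysteine) by 1.64 ± 0.22 and MTHFD2 (mitochondrial folate) by 0.76 ± 0.16. The tRNA synthetases WARS and GARS differed less, by 0.47 ± 0.16 and 0.49 ± 0.13. Not called were AARS (0.34), SARS (0.33), SLC38A2 (0.21), SLC7A1 (0.32), CBS (0.15) and PHGDH, the first enzyme of serine synthesis (0.02, 95% interval -0.25 to 0.30). DDIT3 overlaps the antisense gene MARS in the annotation, and since the strand setting of the counting is not given, its value is uncertain.

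Genes of ER chaperones and folding, which respond to unfolded protein through ATF6 and XBP1, differed less as a group. Of 21 tested, 4 had a higher effect in LNCaP95 and 1 a lower one (median 0.24), against 14.1% and 14.6% of all genes. Within the lines, 12 rose in LNCaP95 and 7 in 22Rv1, against 24.4% and 6.79% of all genes. The 7 became 4 without any one of the 22Rv1 libraries with 500 nM or without 22Rv1 DMSO replicate 2. HERPUD1, of ER-associated degradation, differed by 1.19 ± 0.14 and DNAJB9, a co-chaperone, by 1.43 ± 0.18. HSPA5, the main ER chaperone, differed by 0.29 with an interval of -0.15 to 0.73 and was not called. The count of 4 was 8 with array weights and 7 after quantile normalisation.

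Promoters of ATF3 and SLC3A2 are shown because these were the named members with the smallest p that had an entry, and each holds a copy of the ATF4 binding core. The sequences are RefSeq's, build GRCh38.p14, plus strand, from 250 bases before to 50 after the annotated start, with the CARE core TGATGNAA (either strand) in capitals.
ATF3, chr1:212565157-212565456: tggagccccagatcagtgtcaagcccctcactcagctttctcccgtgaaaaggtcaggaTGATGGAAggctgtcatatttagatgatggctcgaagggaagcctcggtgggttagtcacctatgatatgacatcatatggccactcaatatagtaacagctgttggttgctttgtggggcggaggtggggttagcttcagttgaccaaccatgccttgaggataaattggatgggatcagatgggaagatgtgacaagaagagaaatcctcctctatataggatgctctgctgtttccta
SLC3A2, chr11:62881449-62881748: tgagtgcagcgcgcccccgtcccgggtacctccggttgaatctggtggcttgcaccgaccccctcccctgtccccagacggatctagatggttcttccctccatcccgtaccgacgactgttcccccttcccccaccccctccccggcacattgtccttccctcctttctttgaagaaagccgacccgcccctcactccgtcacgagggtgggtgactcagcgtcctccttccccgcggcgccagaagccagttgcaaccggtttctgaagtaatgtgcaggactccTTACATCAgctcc
In ATF3 the core begins at position -191 from the start, and in SLC3A2 it reads on the opposite strand at position 37. The core was found in 5 of 27 promoters of the list that had an entry, or 18.5%, against 3.67% of all 27305 promoters in the table and 1.63% of those of genes tested. A match is a description of these letters and not a measured site.

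The opposite pattern held for genes of the cell cycle. All 26 genes of the mitosis list had a lower effect in LNCaP95 (14.6% of all genes), with a median difference of -1.10. All 26 fell in LNCaP95 and 5 fell in 22Rv1. Of 35 DNA replication genes, 33 had a lower effect in LNCaP95 (median -0.95), 35 fell in LNCaP95 and 12 fell in 22Rv1. Of all genes, 22.0% fell in LNCaP95 and 5.42% in 22Rv1. With libraries scaled to the same total the falls in 22Rv1 numbered 11 of 26 and 21 of 35. Without a single 22Rv1 library with 500 nM they numbered 1 to 3 and 6, without 22Rv1 DMSO replicate 2 mitosis had 2, and without LNCaP95 replicate 1 or 3 with 500 nM it had 12 or 8, in a fit where all groups share 1 estimate of the spread. Without the libraries that stood apart, 24 mitosis and 30 replication genes were called lower. With all 27 libraries in 1 fit, 14 of the 26 mitosis genes were called. In bulk RNA, fewer cycling cells and less of these RNAs per cell cannot be told apart.

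The mean log2 level over the mitosis list was 9.24, 9.77 and 9.86 in LNCaP95 with 500 nM, against 10.99, 11.03 and 11.12 with DMSO. In 22Rv1 it was 11.12, 11.13 and 10.99 with 500 nM, against 11.41, 11.38 and 11.38 with DMSO. Treated libraries lay below DMSO in both lines, with the wider gap in LNCaP95. CDC20, which activates the anaphase-promoting complex, held 1298, 1949 and 1901 normalised counts in LNCaP95 with 500 nM, against 4448, 4954 and 5062 with DMSO, and 4085, 3732 and 4033 in 22Rv1 with 500 nM, against 4556, 3875 and 4138 with DMSO. Its effects differed by -1.43 ± 0.17, adjusted p = 4.12e-05, with overlapping groups in 22Rv1. CDK1, the kinase that starts mitosis, fell in both lines (-2.04 ± 0.16 in LNCaP95 and -0.57 ± 0.16 in 22Rv1), and the difference was -1.46 ± 0.22, adjusted p = 0.000213. MKI67, whose product Ki-67 is a marker of cycling cells, held 1625, 904 and 1641 in LNCaP95 with 500 nM, against 5025, 3118 and 5362 with DMSO, and 5044, 6698 and 5859 in 22Rv1 with 500 nM, against 5753, 6976 and 6533 with DMSO (-1.57 ± 0.29, adjusted p = 0.000873). PLK1, a mitotic kinase, CCNB1, a mitotic cyclin, and AURKB, a kinase of the spindle checkpoint, differed by -1.39 ± 0.18, -1.35 ± 0.19 and -1.18 ± 0.20. Over the list the difference ran between -1.57 (MKI67) and -0.69 (NUF2, of the kinetochore).

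RRM2, the regulated subunit of ribonucleotide reductase, which makes the building blocks of DNA, had the largest difference in the replication list. It held 934, 1376 and 1387 in LNCaP95 with 500 nM, against 3717, 4203 and 3866 with DMSO, and 4786, 4565 and 4080.3 in 22Rv1 with 500 nM, against 3792, 3247 and 4023 with DMSO. The treated values were lower than all DMSO values in LNCaP95 and higher than all of them in 22Rv1, where the change was not called, and the difference was -1.98 ± 0.18, adjusted p = 6.81e-06. MCM10, an initiation factor, fell in both lines (-1.97 and -0.36) and differed by -1.61 ± 0.15. The helicase genes MCM2 to MCM7 differed by -1.08, -0.99, -1.20, -1.19, -0.87 and -0.97 in the order of their names. Not called were PRIM1, a primase subunit (-0.33), which fell in both lines, and DUT, a dUTPase (-0.04, 95% interval -0.32 to 0.24).

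Of 18 G1 cyclins and CDK inhibitors, 9 had a lower effect in LNCaP95 and 1 a higher one (median -0.55), against 14.6% and 14.1% of all genes. CCND1, cyclin D1, went in opposite directions: 909.6, 978 and 891 in LNCaP95 with 500 nM, against 1649, 2002 and 1680.4 with DMSO, and 27517, 30424 and 32262 in 22Rv1 with 500 nM, against 20469, 23907 and 24771 with DMSO. It fell in LNCaP95 and rose in 22Rv1, with a difference of -1.32 ± 0.14, adjusted p = 1.24e-05. CDK2 and the E2F factors E2F1, E2F2 and E2F8 differed by -0.95, -0.88, -1.52 and -1.38. CDKN2B, the inhibitor p15, was the member with a higher effect in LNCaP95 (2.23 ± 0.52). It averaged 3.84 in LNCaP95 with DMSO and entered the test there through the libraries with 500 nM (41.4). The filter thus favoured a difference in that line, and the call of CDKN2B is no support. CDKN1A, the inhibitor known as p21, rose in both lines: 2652, 2442 and 2391 in LNCaP95 with 500 nM, against 1182, 1155 and 918 with DMSO, and 2095, 2090.4 and 2346 in 22Rv1 with 500 nM, against 1096, 1129 and 1042 with DMSO. Its difference of 0.21 (95% interval -0.08 to 0.50) was not called. GDF15, a secreted stress cytokine, likewise rose in both lines (2.04 and 1.85), with a difference of 0.19 (interval -0.40 to 0.78). Of 23 p53 targets, 4 had a higher effect in LNCaP95 and 4 a lower one, near the shares of all genes (14.1% and 14.6%). The lower count was 1 or 2 without LNCaP95 replicate 1 or 2 with 500 nM, LNCaP95 DMSO replicate 2 or 3, or any 22Rv1 library with 500 nM. The higher ones included BBC3, a promoter of apoptosis, at 1.62 ± 0.21, and XPC, of DNA repair, at 0.73 ± 0.13.

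Promoters of CDC20 and RRM2 are shown because each holds several CCAAT boxes, letters common in promoters of cell cycle genes. They come from the same RefSeq table and build, plus strand, with CCAAT on the strand shown in capitals.
CDC20, chr1:43358731-43359030: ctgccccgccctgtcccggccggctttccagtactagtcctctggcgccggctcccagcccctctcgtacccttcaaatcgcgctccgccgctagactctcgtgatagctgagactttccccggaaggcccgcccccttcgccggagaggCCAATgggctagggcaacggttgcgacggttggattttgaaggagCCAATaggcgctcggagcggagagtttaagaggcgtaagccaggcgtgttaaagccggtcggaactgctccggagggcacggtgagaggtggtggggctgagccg
RRM2, chr2:10122489-10122788: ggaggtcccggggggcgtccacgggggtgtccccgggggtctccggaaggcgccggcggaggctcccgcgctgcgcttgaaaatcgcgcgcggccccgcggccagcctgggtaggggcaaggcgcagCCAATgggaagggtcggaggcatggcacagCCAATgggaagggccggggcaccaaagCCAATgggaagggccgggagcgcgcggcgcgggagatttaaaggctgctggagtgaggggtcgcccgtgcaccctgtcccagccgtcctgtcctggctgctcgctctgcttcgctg
CDC20 holds 2 boxes, at positions -100 and -55 from the start, and RRM2 holds 3, at -123, -93 and -66. On either strand, CCAAT was present in 16 of 21 mitosis promoters (76.2%) and 17 of 31 replication promoters (54.8%), against 35.7% of all promoters in the table. It was also present in 12 of 15 cholesterol synthesis promoters, a list with 3 higher and 4 lower differences.

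Genes that build ribosomes and supply energy also had lower effects in LNCaP95. Of 24 genes of ribosome biogenesis, 19 were called lower (median -0.64), where 14.6% of all genes were. Within the lines, 21 fell in LNCaP95 and 1 in 22Rv1, against 22.0% and 5.42% of all genes. FBL, the methylase of ribosomal RNA, held 2939, 3542 and 3774 normalised counts in LNCaP95 with 500 nM, against 5614, 6807 and 6289.7 with DMSO, and 8436, 8425 and 8534 in 22Rv1 with 500 nM, against 9159, 7780.1 and 8123 with DMSO. The LNCaP95 groups were apart and the 22Rv1 groups overlapped, with a difference of -0.89 ± 0.14, adjusted p = 0.000257. NCL, nucleolin, and TCOF1, of ribosomal RNA transcription, differed by -0.85 ± 0.14 and -1.09 ± 0.19. MYC, which drives this programme, fell in both lines (-0.32 and -0.46), with a difference of 0.14 (interval -0.22 to 0.50) that was not called. Its LNCaP95 groups overlapped, at 4106, 5132 and 5310 with 500 nM, against 6768, 4910 and 6608 with DMSO. Of 26 cytosolic ribosomal protein genes, 1 was called each way, and these genes have pseudogenes that may share reads. These genes took 1.70% to 2.01% of the counts in LNCaP95 and 5.01% to 5.73% in 22Rv1.

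Of 25 glycolysis genes, 15 had a lower effect in LNCaP95 and 1 a higher one (median -0.63), against 14.6% and 14.1% of all genes. In LNCaP95 15 fell and 3 rose, while in 22Rv1 5 rose and 0 fell, and 3 rose without 22Rv1 replicate 2 with 500 nM. Of all genes, 22.0% fell and 24.4% rose in LNCaP95, and 6.79% rose and 5.42% fell in 22Rv1. LDHA, which turns pyruvate into lactate, held 6983, 9145 and 9280.2 in LNCaP95 with 500 nM, against 17683, 21315 and 19449 with DMSO, and 15605, 14060.5 and 13200.4 in 22Rv1 with 500 nM, against 14679, 11739 and 14080.3 with DMSO. It was lower in every treated LNCaP95 library, its 22Rv1 groups overlapped, and the difference was -1.29 ± 0.17, adjusted p = 5.92e-05. PFKP, a phosphofructokinase, differed by -1.42 ± 0.14, adjusted p = 9.84e-06, GPI, the isomerase, by -0.97 ± 0.12, and PKM, pyruvate kinase, by -0.76 ± 0.14. HK1 and HK2, the hexokinases, fell in LNCaP95 (-0.45 and -0.30) and rose in 22Rv1 (0.44 and 0.43), with differences of -0.89 ± 0.11 and -0.73 ± 0.15. The member with a higher effect was SLC16A1, a lactate carrier (0.50 ± 0.15). Of 27 nuclear genes of the TCA cycle and oxidative phosphorylation, 16 had a lower effect in LNCaP95 and 0 a higher one (median -0.40). IDH3A, of isocitrate dehydrogenase, fell in LNCaP95 and rose in 22Rv1 (-0.93 ± 0.13), and CS, citrate synthase, differed by -0.65 ± 0.10. The 13 mitochondrially encoded genes had a median difference of 0.088, which became -0.39 without the libraries that stood apart.

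Cytosolic heat shock proteins, which fold other proteins, moved apart in the lines. Of 15 tested, 11 had a lower effect in LNCaP95 and 0 a higher one (median -0.56), against 14.6% and 14.1% of all genes. In LNCaP95 8 fell, and in 22Rv1 5 rose, against 22.0% and 6.79% of all genes. HSP90AB1 held 44596, 47371 and 46034 in LNCaP95 with 500 nM, against 58936, 68539 and 59684 with DMSO, and 60612, 60132 and 58494 in 22Rv1 with 500 nM, against 48459, 42912 and 47333 with DMSO. Treated libraries were lower than all DMSO libraries in LNCaP95 and higher than all of them in 22Rv1, and the difference was -0.81 ± 0.14, adjusted p = 0.000429. HSPA8, the constitutive HSP70, differed by -0.91 ± 0.20 and HSPA4 by -0.82 ± 0.13. The number that rose in 22Rv1 was 3 with libraries scaled to the same total, 2 after quantile normalisation, 2 without 22Rv1 replicate 1 or 2 with 500 nM or DMSO replicate 2, and 3 without replicate 3 with 500 nM.

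**Figure D2:**
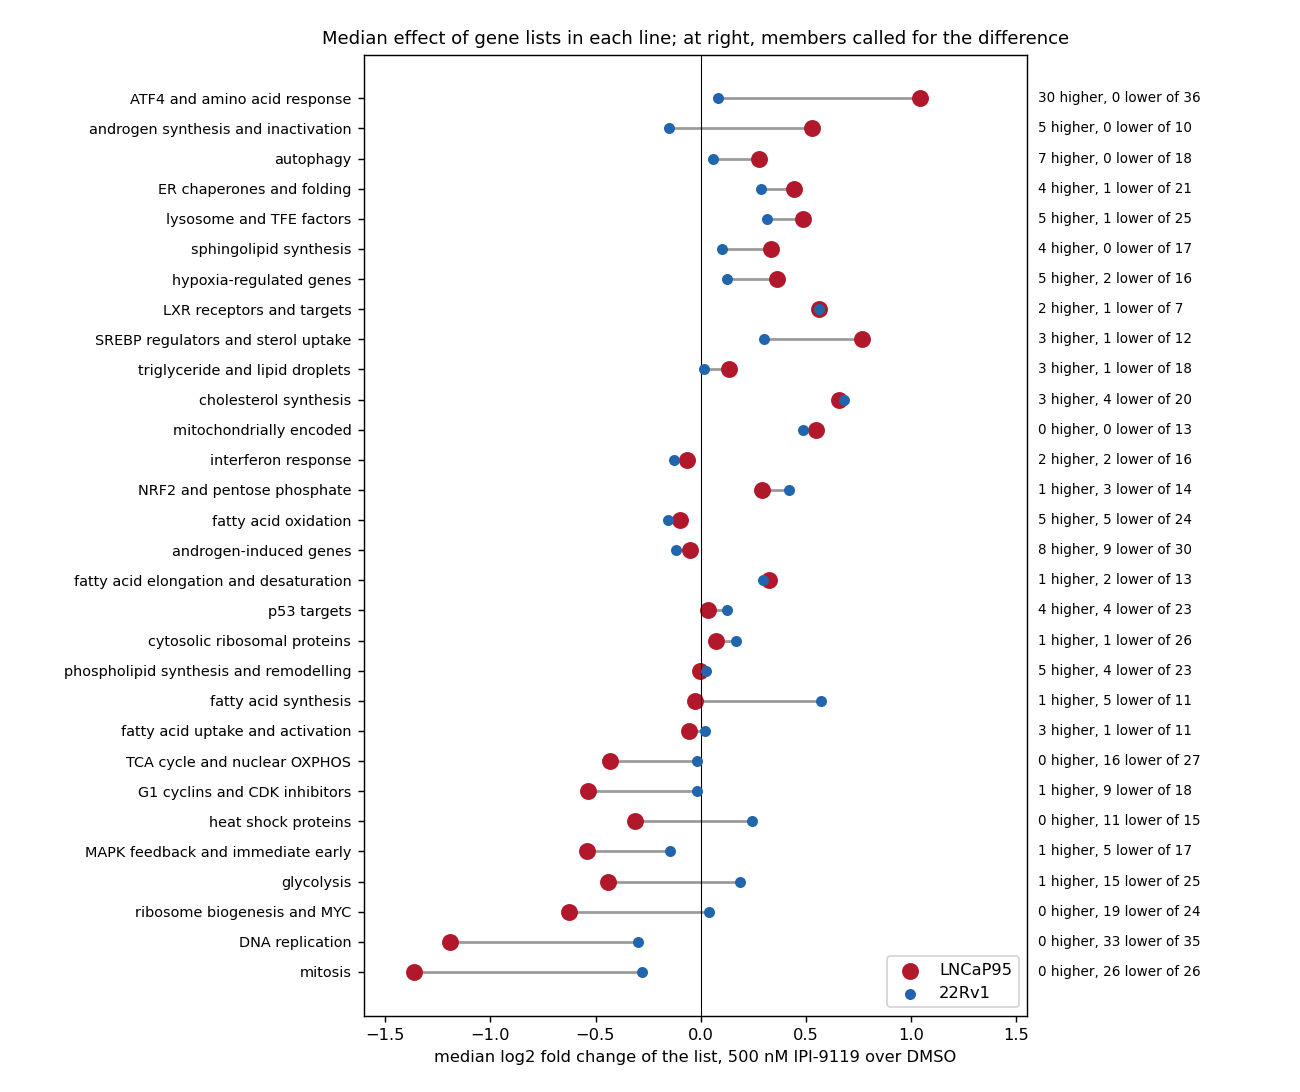
Median log2 fold change between 500 nM IPI-9119 and DMSO of gene lists with 7 or more tested members, in LNCaP95 (large red points) and 22Rv1 (small blue points), ordered by the median difference; text at the right counts members called for the difference. The lines lie far apart for ATF4 and amino acid response at the top and for mitosis and DNA replication at the bottom, and together for cholesterol synthesis.

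**Figure D3:**
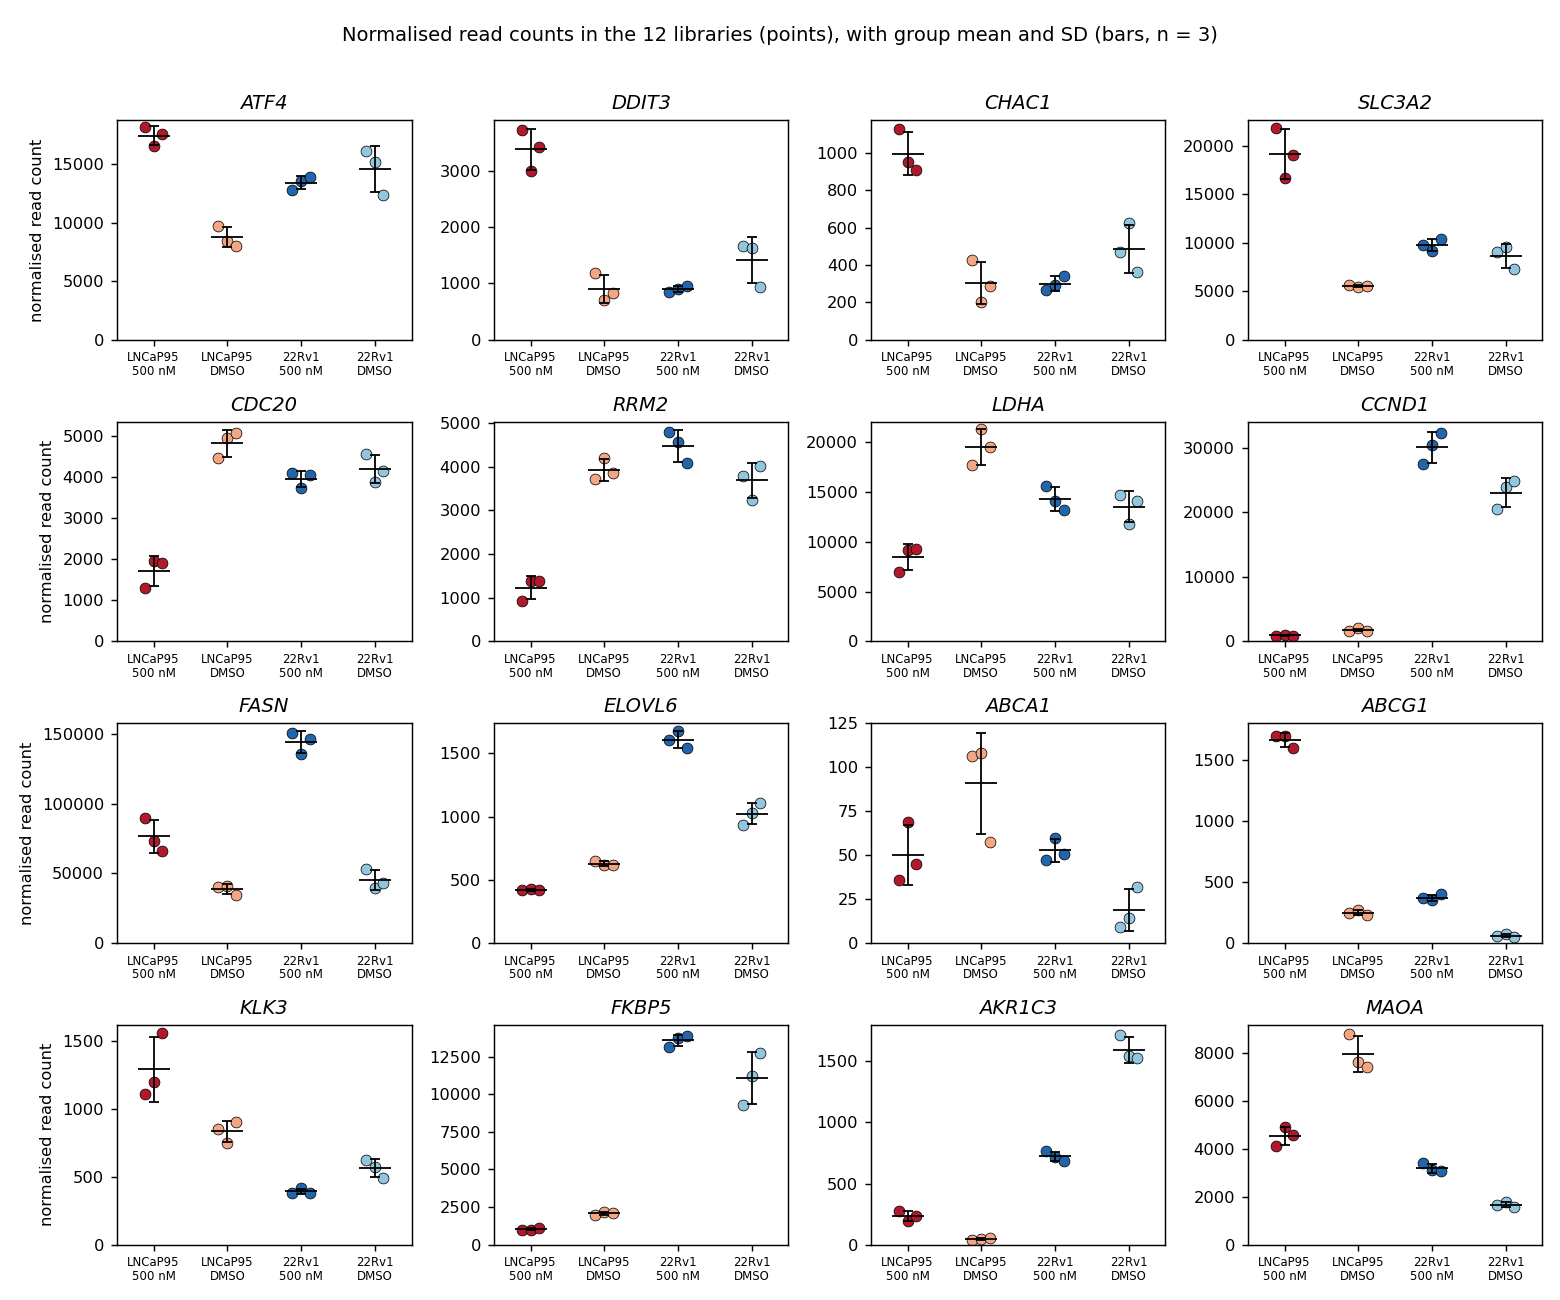
Normalised read counts of 16 genes in each of the 12 libraries (points), with group mean and SD (bars, n = 3), for LNCaP95 and then 22Rv1, 500 nM left of DMSO. ATF4, DDIT3 and SLC3A2 are highest and RRM2 and LDHA lowest in the treated LNCaP95 libraries, and ELOVL6, AKR1C3 and MAOA go in opposite directions in the lines.

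In lipid synthesis, the pathway that the drug inhibits, many genes rose in both lines, and the called differences ran both ways. FASN held 90036, 73703 and 66479 normalised counts in LNCaP95 with 500 nM, against 40436, 41132 and 34549 with DMSO, and 151109, 136199.8 and 146463 in 22Rv1 with 500 nM, against 53463, 39826 and 43153 with DMSO. All treated libraries of a line lay above all its DMSO libraries, a rise of 1.97-fold in LNCaP95 and 3.2-fold in 22Rv1. The effect was lower in LNCaP95, with a difference of -0.70 ± 0.19, adjusted p = 0.0106. Of 11 tested genes of fatty acid synthesis, 5 rose in LNCaP95 and 7 in 22Rv1 (24.4% and 6.79% of all genes). For the difference, 5 had a lower effect in LNCaP95 and 1 a higher one (median -0.19), against 14.6% and 14.1% of all genes. ACACA, acetyl-CoA carboxylase, rose in both lines (0.47 and 1.09) and differed by -0.61 ± 0.15, adjusted p = 0.00562. ACLY, which makes cytosolic acetyl-CoA from citrate, held 9843, 9901 and 9724 in LNCaP95 with 500 nM, against 10647, 9313 and 11147 with DMSO, and 22365, 21055 and 21362 in 22Rv1 with 500 nM, against 14499, 13887 and 15263 with DMSO. It rose in 22Rv1 and overlapped in LNCaP95 (-0.64 ± 0.12, adjusted p = 0.000783). SLC25A1, the citrate carrier, differed by -0.46 ± 0.13, and ACSS2, acetyl-CoA synthetase, by -0.48 ± 0.17, adjusted p = 0.0443, a call lost under 14 of 26 alternative settings. MID1IP1, which activates acetyl-CoA carboxylase, was the member with a higher effect in LNCaP95 (0.74 ± 0.13, adjusted p = 0.0006). With all 27 libraries in 1 fit none of the 5 lower calls held.

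The desaturase SCD rose in both lines: 26898, 19252 and 18015 in LNCaP95 with 500 nM, against 6626, 4453 and 6592 with DMSO, and 62139.9, 62141 and 59819 in 22Rv1 with 500 nM, against 9875, 13274 and 13882 with DMSO. The difference of -0.47 had an interval of -0.96 to 0.02 and was not called. FADS2, of polyunsaturated fatty acids, rose by 0.67 in LNCaP95 and 0.81 in 22Rv1 and was not called either (-0.14, interval -0.53 to 0.25). ELOVL6, which lengthens palmitate, went in opposite directions. It held 416, 429 and 417 in LNCaP95 with 500 nM, against 649, 614 and 619 with DMSO, and 1606, 1675 and 1542 in 22Rv1 with 500 nM, against 936, 1028 and 1106 with DMSO. No values of treated and DMSO libraries overlapped in either line, and the difference was -1.23 ± 0.12, adjusted p = 8.23e-06.

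The lipogenic factor SREBF1 rose in both lines. It held 15240.5, 14334 and 15038 in LNCaP95 with 500 nM, against 6114, 6046 and 6306 with DMSO, and 33704, 32811 and 33921 in 22Rv1 with 500 nM, against 15033, 12248 and 12052 with DMSO. The difference was -0.09 with an interval of -0.35 to 0.18. Of 20 cholesterol synthesis genes, 17 rose in LNCaP95 and 16 in 22Rv1, against 24.4% and 6.79% of all genes. For the difference, 3 were called higher in LNCaP95 and 4 lower (median 0.093), where 14.1% and 14.6% of all genes were. Alternative settings moved these counts between 1 and 5 and between 2 and 6. The lower count was 2 without LNCaP95 replicate 2 with 500 nM, LNCaP95 DMSO replicate 1, 22Rv1 replicate 1 or 2 with 500 nM, or 22Rv1 DMSO replicate 2. Higher were SQLE, squalene epoxidase (0.49 ± 0.14, adjusted p = 0.0137), and the later enzymes MSMO1 (0.50 ± 0.15) and SC5D (0.68 ± 0.17). The lower ones included EBP, a sterol isomerase, which fell in LNCaP95 (-0.83 ± 0.17, adjusted p = 0.00203), ACAT2 (-0.60 ± 0.14) and NSDHL (-0.44 ± 0.15). ACAT2 and FADS2 each overlap exons of an antisense gene.

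Among 12 SREBP regulators and sterol uptake genes, 3 had a higher effect in LNCaP95 and 1 a lower one (median 0.13). Of all genes, 14.1% were higher and 14.6% lower. INSIG1, the sterol-controlled brake on SREBP, rose in both lines and more in LNCaP95 (1.54 and 0.99, 0.54 ± 0.14, adjusted p = 0.00845). INSIG2, its relative, held 669.5, 723 and 750.0 in LNCaP95 with 500 nM, against 344, 434 and 381 with DMSO, and 117, 138 and 140.0 in 22Rv1 with 500 nM, against 133, 141 and 138 with DMSO. It rose in LNCaP95 and its groups overlapped in 22Rv1 (0.95 ± 0.17, adjusted p = 0.00067). NPC1, which exports cholesterol from lysosomes, differed by 0.95 ± 0.14, and SCARB1, the receptor for high-density lipoprotein, by -0.89 ± 0.11.

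Among the sterol exporters, which the LXR receptors induce, ABCA1 was called for the difference and ABCG1 was not. ABCG1 rose in both lines: 1691, 1695 and 1599 in LNCaP95 with 500 nM, against 245, 268 and 226 with DMSO, and 366, 349 and 398 in 22Rv1 with 500 nM, against 60.6, 71.0 and 51.6 with DMSO. This was 6.74-fold and 6.04-fold, and the difference of 0.16 (interval -0.21 to 0.53) was not called. ABCA1 held 36.0, 69.0 and 45.2 in LNCaP95 with 500 nM, against 107, 108 and 57.7 with DMSO, and 47.3, 60.0 and 50.7 in 22Rv1 with 500 nM, against 9.23, 14.4 and 32.0 with DMSO. It rose in 22Rv1, its groups overlapped in LNCaP95 where the change was not called (adjusted p = 0.0675), and the difference was -2.47 ± 0.51, adjusted p = 0.00204.

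In fatty acid oxidation 5 of 24 genes had a higher effect in LNCaP95 and 5 a lower one (median -0.052), where 14.1% of all genes were higher and 14.6% lower. The higher count was 3 without LNCaP95 DMSO replicate 2, and the lower count was 3 without LNCaP95 replicate 1 with 500 nM, 22Rv1 replicate 1 with 500 nM or 22Rv1 DMSO replicate 3. CPT1A, which admits fatty acids to mitochondria, fell in both lines: 935, 775 and 799 in LNCaP95 with 500 nM, against 3415, 3091 and 3541 with DMSO, and 1409, 1783 and 1740.3 in 22Rv1 with 500 nM, against 3081, 3050.4 and 3082 with DMSO. The fall was larger in LNCaP95 (-1.09 ± 0.14, adjusted p = 5.61e-05). ACADM, the medium-chain dehydrogenase, rose in LNCaP95 and fell in 22Rv1 (0.60 ± 0.10). Among enzymes that activate fatty acids, ACSL5 fell in 22Rv1 and overlapped in LNCaP95 (1.49 ± 0.30), ACSL1 differed by 0.47 ± 0.14 and ACSL3 by -0.51 ± 0.15. Each of these last calls was lost under 5 of 26 alternative settings: that of ACSL1 in the fit of 27 libraries and without LNCaP95 replicate 1 with 500 nM, LNCaP95 DMSO replicate 2, 22Rv1 replicate 2 with 500 nM or 22Rv1 DMSO replicate 2, and that of ACSL3 with equal totals, after quantile normalisation and without LNCaP95 replicate 2 with 500 nM, LNCaP95 DMSO replicate 3 or 22Rv1 replicate 2 with 500 nM. Of 18 genes of triglycerides and lipid droplets, 3 were higher and 1 lower in LNCaP95, beside the same 14.1% and 14.6% of all genes. PLIN4, a droplet coat protein, was opposite in the lines (1.93 ± 0.42). PNPLA2, the first lipase of stored fat, differed by 0.50 ± 0.12. Phospholipid genes had 5 higher and 4 lower of 23, also to be read against the 14.1% and 14.6% of all genes, with 2 or 3 higher without LNCaP95 replicate 2 or 3 with 500 nM, LNCaP95 DMSO replicate 1 or 3, 22Rv1 replicate 2 or 3 with 500 nM, or 22Rv1 DMSO replicate 3. PCYT2, of phosphatidylethanolamine synthesis, rose in 22Rv1 (-0.74 ± 0.14), and PTDSS1, of phosphatidylserine synthesis, fell in LNCaP95 (-0.68 ± 0.11). Sphingolipid genes had 4 higher and 0 lower of 17, beside the same shares of all genes, with CERS4, a ceramide synthase, at 1.20 ± 0.16.

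**Figure D4:**
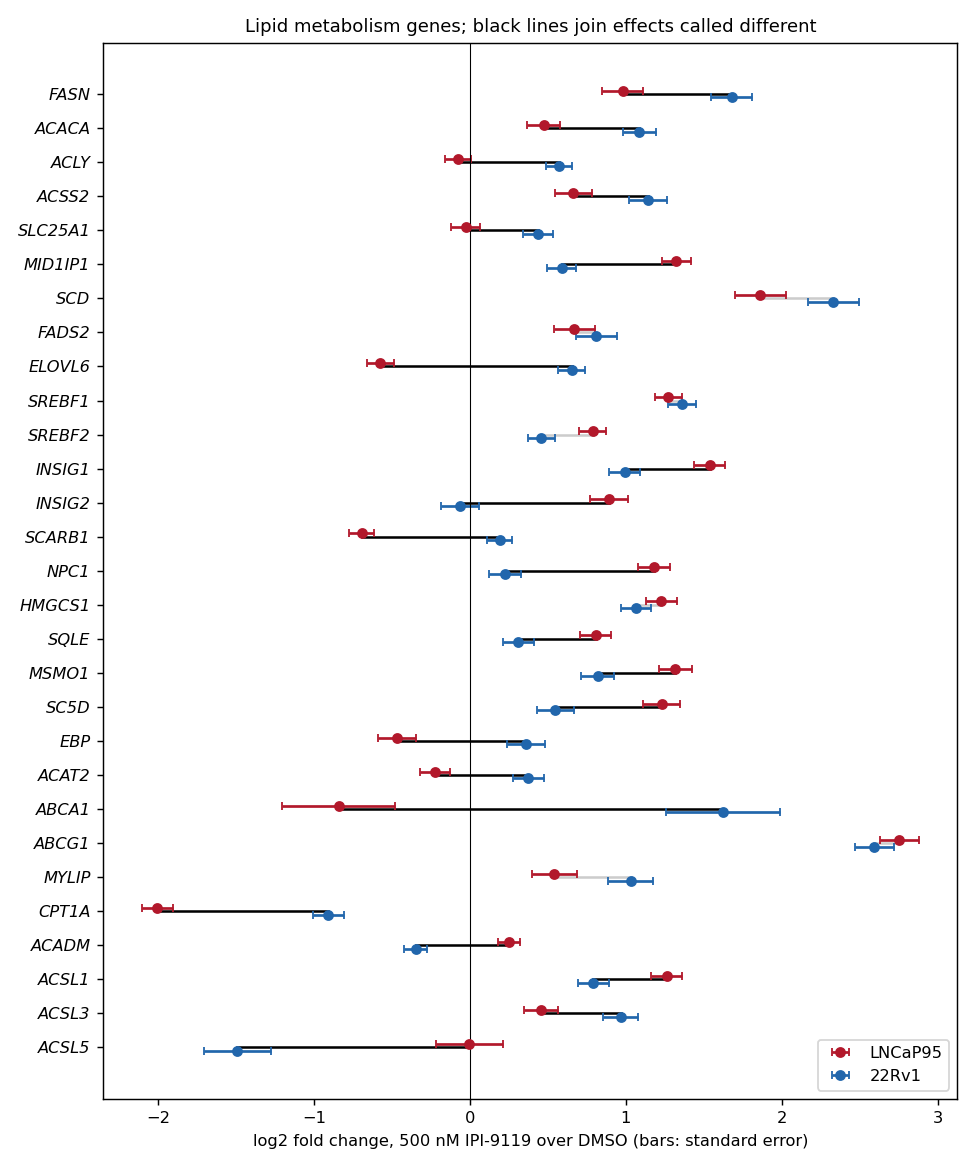
Log2 fold change between 500 nM IPI-9119 and DMSO of 29 lipid genes in LNCaP95 (red) and 22Rv1 (blue), with standard errors; black lines join effects that were called different. FASN, SCD, SREBF1 and ABCG1 rise in both lines, while ELOVL6 and ABCA1 lie on opposite sides of 0.

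Genes of autophagy and lysosomes recycle cell material. Of 18 autophagy genes, 7 had a higher effect in LNCaP95 and 0 a lower one (median 0.32, with 14.1% of all genes higher), a count that fell to 3 without replicate 1 of LNCaP95 with 500 nM or replicate 2 of 22Rv1 with 500 nM, and to 4 without replicate 2 of LNCaP95 with 500 nM, replicate 3 of LNCaP95 with DMSO or replicate 3 of 22Rv1 with 500 nM. MAP1LC3B, of the autophagosome coat, rose in both lines (1.33 and 0.47, 0.86 ± 0.14, adjusted p = 0.000287), as did the cargo receptor SQSTM1 (1.38 and 0.94, 0.44 ± 0.14, adjusted p = 0.0244). The call of SQSTM1 for the difference was lost in the fits of 18 and 27 libraries and without LNCaP95 replicate 1 with 500 nM, LNCaP95 DMSO replicate 3 or 22Rv1 replicate 2 with 500 nM. Of 25 lysosomal genes, 18 rose in LNCaP95, where 24.4% of all genes did, and 12 rose in 22Rv1, where 6.79% did. For the difference 5 were higher and 1 lower, and the share of 5 in 25 is near that of all genes. The 12 became 7 without 22Rv1 replicate 1 with 500 nM, and the 5 became 3 without LNCaP95 replicate 1 or 22Rv1 replicate 2 with 500 nM. CTSD, a protease, differed by 0.65 ± 0.14 and GRN, progranulin, by 0.72 ± 0.13. GPNMB, a lysosomal glycoprotein, rose in both lines (3.42 and 2.73) and was not called for the difference (0.69, interval 0.09 to 1.30).

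Androgen-induced genes split. Of 30 tested, 8 had a higher effect in LNCaP95 and 9 a lower one (median -0.070), against 14.1% and 14.6% of all genes. The lower count was 3 with all 27 libraries in 1 fit and 5 either with libraries scaled to the same total or without 22Rv1 replicate 2 with 500 nM. KLK3, which encodes prostate-specific antigen, held 1113, 1197 and 1559 in LNCaP95 with 500 nM, against 854, 751 and 900.1 with DMSO, and 383, 415 and 379 in 22Rv1 with 500 nM, against 625, 568 and 494 with DMSO. It rose in LNCaP95 and fell in 22Rv1 with no overlap of groups in either (1.13 ± 0.18, adjusted p = 0.000241). FKBP5, a co-chaperone of steroid receptors, went the other way: 957, 999.5 and 1085 in LNCaP95 with 500 nM, against 1997, 2174 and 2092 with DMSO, and 13152, 13739 and 13883 in 22Rv1 with 500 nM, against 9294, 11201 and 12739 with DMSO. It fell in LNCaP95, its change in 22Rv1 was just short of the call (adjusted p = 0.0504), and the difference was -1.35 ± 0.14, adjusted p = 1.05e-05. TSC22D3, also a glucocorticoid target, differed by 1.79 ± 0.21, adjusted p = 3.29e-05, and ACPP, prostatic acid phosphatase, by 1.46 ± 0.18, adjusted p = 4.01e-05, both through a rise in LNCaP95. STEAP2, a metalloreductase, differed by 1.28 ± 0.15. SLC45A3, prostein, differed through a fall in 22Rv1 (0.81 ± 0.21, adjusted p = 0.01). NDRG1 rose in LNCaP95 and fell in 22Rv1 (1.23 ± 0.17). Not called were KLK2 (0.50, interval 0.11 to 0.89) and TMPRSS2 (0.25, interval -0.23 to 0.73).

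Enzymes that make or inactivate steroids gave some of the largest differences. Of 10 tested of 19 listed, 5 had a higher effect in LNCaP95 and 0 a lower one (median 0.38), against 14.1% and 14.6% of all genes. AKR1C3, which turns weak androgens into testosterone, held 276, 194 and 233 in LNCaP95 with 500 nM, against 38.7, 46.2 and 52.4 with DMSO, and 763, 720.0 and 682 in 22Rv1 with 500 nM, against 1716, 1542 and 1527 with DMSO. It rose 5.01-fold in LNCaP95 and in 22Rv1 had 0.453 of its DMSO level, and the difference was 3.47 ± 0.19, adjusted p = 1.95e-08. AKR1C1 and AKR1C2 differed by 2.69 ± 0.27 and 1.56 ± 0.28. UGT2B15, which conjugates androgens to glucuronic acid, held 25857, 29326 and 30553 in LNCaP95 with 500 nM, against 14198, 17256 and 16068 with DMSO, and 714, 589 and 550.3 in 22Rv1 with 500 nM, against 814, 996 and 857 with DMSO (1.38 ± 0.15, adjusted p = 2.01e-05). UGT2B17, its near relative, was called in neither line (0.71 and 0.84) nor for the difference (-0.13, interval -1.09 to 0.82). Members of the AKR1C and UGT2B families are near-identical, and the counting may have split their reads, so single members are uncertain. Beside these values, the sum of the 12 liver-type genes in 22Rv1 was 3278 to 3496 with 500 nM, against 13684 to 16024 with DMSO, and its part in the result was not tested.

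The list of MAPK feedback and immediate early genes, which growth factor signalling induces, had 5 lower and 1 higher of 17 (median -0.58). The shares of all genes were 14.6% and 14.1%. Under other settings the lower count ran from 2 (a filter of 50) to 8, the higher count from 1 to 5 and the median from -0.73 to 0.14. DUSP5, a phosphatase of ERK, held 565, 958 and 973 in LNCaP95 with 500 nM, against 2234, 2598 and 2507 with DMSO, and 13.5, 26.4 and 18.1 in 22Rv1 with 500 nM, against 7.91, 8.43 and 12.4 with DMSO. It fell in LNCaP95, where its level was high, and rose in 22Rv1, where it was low (-2.51 ± 0.34). DUSP4, a related phosphatase, and ETV4, an ETS factor, also fell in LNCaP95 and rose in 22Rv1 (-1.94 ± 0.31 and -1.71 ± 0.30), as did SPRED2 (-1.02 ± 0.17). DUSP5 in 22Rv1 passed the minimum of 10 through its treated libraries, and ETV4 in LNCaP95 through its DMSO libraries. For each, the filter favoured a difference in that line, so the change there is no support. Of 16 hypoxia-regulated genes, 5 were higher and 2 lower in LNCaP95 (14.1% and 14.6% of all genes), among them VEGFA, the angiogenic factor (1.21 ± 0.18, adjusted p = 0.000166), and NDUFA4L2 (2.42 ± 0.29, adjusted p = 3.29e-05), which overlaps the antisense gene SHMT2, itself called higher (0.60 ± 0.13). Of 16 interferon response genes, 2 were higher (RSAD2 at 2.16 ± 0.36 and IRF9) and 2 lower, near those same shares of all genes. The lower ones included OAS3 at -0.87 ± 0.14.

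Low levels in 1 group of a line mark many of the largest differences. Of the 20 largest among called genes with a group mean of 50 or more, 10 each way, 13 averaged under 10 in 1 group of a line and entered the test there through the other group. The filter favoured a difference within that line, so their rank and call are no support, and no p is given for them. In LNCaP95, UGT2B4, LURAP1L, PRSS3 and KIAA1683 entered through the libraries with 500 nM, and PRLR, PLA2G7, FAM13C, COL2A1, CORO1A and RPRML through those with DMSO. In 22Rv1, GBX2 and DUSP5 entered through the libraries with 500 nM and BMX through those with DMSO. Over all genes tested 287 were of this kind, 104 of them among the 3414.

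The largest difference was that of UGT2B4, a glucuronosyltransferase of bile acids. It held 43.4, 28.8 and 48.7 in LNCaP95 with 500 nM, against 5.28, 2.35 and 6.07 with DMSO, and 52.96, 61.2 and 56.7 in 22Rv1 with 500 nM, against 117, 238 and 177 with DMSO. The treated values were above all DMSO values in LNCaP95 and below all of them in 22Rv1 (4.50 ± 0.44). NOS3, the endothelial nitric oxide synthase, had 2546, 1216 and 1235 in LNCaP95 with 500 nM, against 202, 167 and 108 with DMSO, and 2477, 2531 and 2912 in 22Rv1 with 500 nM, against 2790.0, 2611 and 2619.7 with DMSO. Treated LNCaP95 libraries rose toward the level of 22Rv1, whose groups overlapped (3.36 ± 0.33, adjusted p = 7.39e-06); NOS3 overlaps the antisense gene ATG9B. PTPRB, a receptor phosphatase, rose in LNCaP95 (2.86 ± 0.39, adjusted p = 8.81e-05), as did CUZD1 (4.22 ± 0.54). In 22Rv1 CUZD1 was low, at 10.1, 6.00 and 26.6 with 500 nM, against 31.6, 22.9 and 21.7 with DMSO. These groups overlapped and the change of -1.01 was not called, yet it enters the difference. CUZD1 also overlaps exons of FAM24B on the same strand. LURAP1L differed by 3.56 ± 0.53 and PRSS3, a trypsin gene with near-identical relatives, by 3.39 ± 0.72. PBLD rose in LNCaP95 and fell in 22Rv1 (2.86 ± 0.17, adjusted p = 1.95e-08). BMX, a tyrosine kinase, and KIAA1683 complete the 10 largest positive differences (3.19 ± 0.83 and 2.95 ± 0.50); 1 of the treated 22Rv1 libraries listed BMX at 0.

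Among the largest negative differences, COL2A1, a collagen of cartilage, held 3.69, 5.15 and 4.75 in LNCaP95 with 500 nM, against 22.9, 21.1 and 19.7 with DMSO, and 145, 109 and 116 in 22Rv1 with 500 nM, against 50.1, 59.0 and 67.0 with DMSO. The difference was -3.07 ± 0.34. P2RY1, a receptor for ADP, fell in LNCaP95 and rose in 22Rv1 (-2.85 ± 0.42, adjusted p = 0.000168). RPRML held 1.85, 4.12 and 1.19 in LNCaP95 with 500 nM, against 37.0, 61.8 and 34.9 with DMSO (-2.89 ± 0.42). CORO1A, an actin-binding protein, held 7.39, 14.4 and 4.75 in LNCaP95 with 500 nM, against 57.2, 57.1 and 62.2 with DMSO (-2.53 ± 0.40). DUSP5 and ABCA1, given above, come next, and PRLR, the prolactin receptor (-2.18 ± 0.44), PLA2G7 (-2.17 ± 0.41), the homeobox gene GBX2 (-2.17 ± 0.57) and FAM13C (-2.17 ± 0.40) complete the 10. Several of these are low in LNCaP95, where the pseudocount of 1 understates a change. MAOA, a monoamine oxidase, was high in both lines and moved in opposite directions: 4124, 4907 and 4575 in LNCaP95 with 500 nM, against 8820.0, 7631 and 7440.3 with DMSO, and 3401, 3113 and 3065 in 22Rv1 with 500 nM, against 1661, 1771 and 1551 with DMSO (-1.75 ± 0.13, adjusted p = 5.69e-07).

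**Figure D5:**
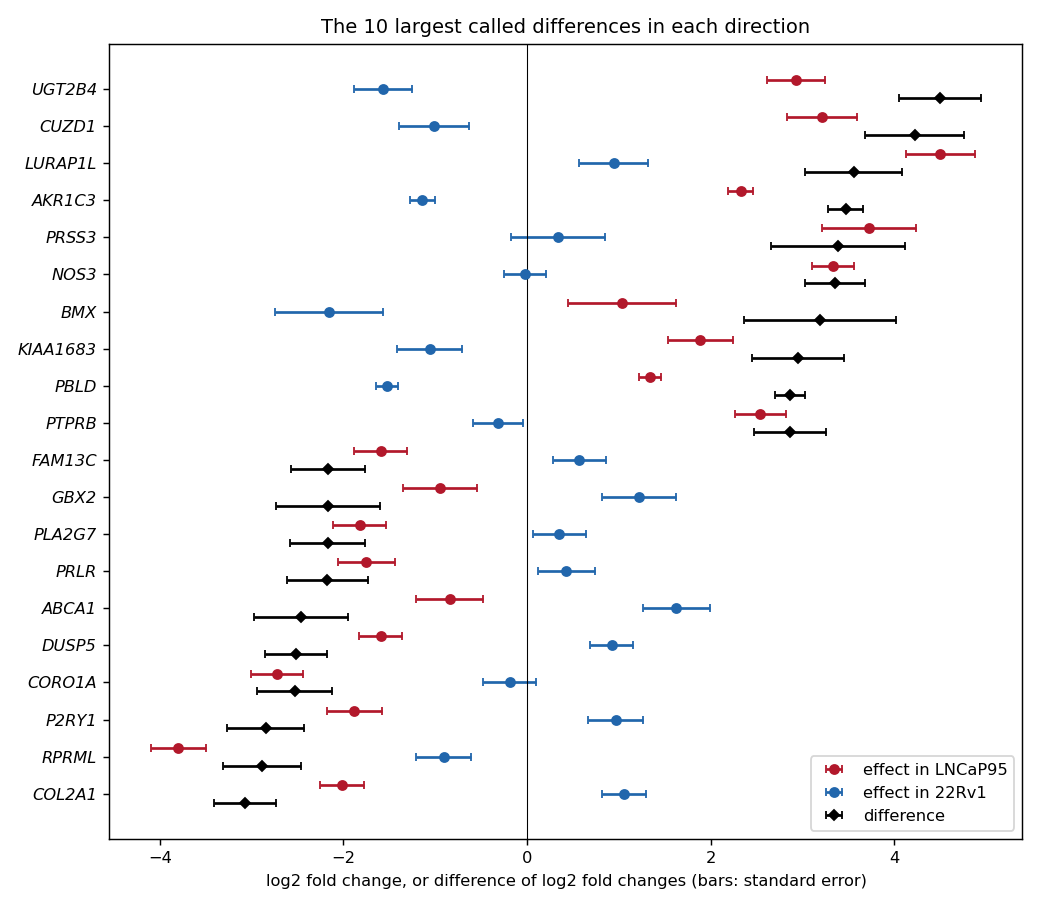
The 10 largest positive and 10 largest negative called differences among genes with a group mean of 50 or more, with the effect in LNCaP95 (red), the effect in 22Rv1 (blue) and the difference (black), each with its standard error. UGT2B4 at the top and COL2A1 at the bottom have effects of opposite sign in the lines, and for NOS3 the effect in 22Rv1 lies at 0.

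Genes expressed in 1 line could not be tested for a difference and are described only. Those named, apart from ALB, were chosen for groups that do not overlap and for the size of their change. In LNCaP95, 501 genes passed with all 22Rv1 libraries under 10. LCN2, lipocalin 2, held 325, 110.1 and 132 normalised counts with 500 nM, against 4.4, 4.7 and 0.759 with DMSO. PRSS1, a trypsin gene with near-identical relatives, held 1178, 603 and 750.0 with 500 nM, against 37.9, 24.3 and 35.7 with DMSO, and SV2B, a synaptic vesicle protein, 131, 59.7 and 85.6, against 2.64, 1.57 and 0.759. All 3 were higher in each treated library than in any DMSO library, which the choice of genes required. LCN2 and SV2B averaged 3.29 and 1.66 with DMSO and passed the minimum of 10 through the libraries with 500 nM. In 22Rv1, 1241 genes passed with all LNCaP95 libraries under 10. CYP2C8, a cytochrome of liver, held 9.01, 20.4 and 20.5 with 500 nM, against 137, 112 and 106 with DMSO, and CLRN3 5.63, 4.8 and 3.62, against 47.4, 48.2 and 54.7. CLRN3 averaged 4.68 with 500 nM and passed the minimum of 10 through its DMSO libraries. LAMP3, a lysosomal membrane protein, held 131, 197 and 222 with 500 nM, against 21.1, 52.97 and 26.8 with DMSO. ALB, named after its values were seen, held 2843, 3013 and 2809.5 in 22Rv1 with 500 nM, against 12847, 14612 and 15097 with DMSO.

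At 100 nM the same difference was called at 2532 of 11922 genes (21.2%), 1215 higher (10.2%) and 1317 lower (11.0%). The 100 nM and 500 nM comparisons share the DMSO libraries, so their values are given side by side and are not a repeat. The 100 nM differences in log2 were 2.10 for DDIT3, 2.48 for CHAC1 and 0.93 for ATF4, beside 2.53, 2.43 and 1.11 at 500 nM. RRM2 had -1.93 and CDC20 -1.53, beside -1.98 and -1.43. FASN had -0.51 at 100 nM and was not called there, while ELOVL6 (-1.35) and FKBP5 (-1.13) were. AKR1C3 had 3.30 and UGT2B4 4.19, beside 3.47 and 4.50. The median 100 nM difference was 0.95 over the ATF4 list and -1.11 over the mitosis list.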

How the data were processed

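Poly(A)-selected RNA was sequenced as paired ends from directional libraries, per the labels' protocols. STAR 2.3.1z4, featureCounts, DESeq and genome build hg19 are named in the submitters' processing notes. The order of steps and the strand setting are not stated there or in the labels, so overlapping and antisense genes are uncertain: 28 of 184 named genes found in the GENCODE annotation share exonic positions with another gene, 24 of them antisense. The deposited table holds a normalised count signal per gene, which the authors scaled per library. All values of the 12 libraries were whole multiples of 1 read within a relative tolerance of 1e-06, so whole reads were recovered for count tests. Columns of no sample numbered 0.

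Values were taken as log2(value + 1) and fitted with limma 3.58.1 (R 4.3.3, intensity trend, 4 group means of 3 libraries). Contrasts were two-sided and Benjamini-Hochberg adjusted over the 11921 genes tested, with calls at 0.05. Errors after ± are standard errors of log2 values. Only the 12 libraries entered, and the 100 nM contrast was fitted with its own 12. Alternatives were a replicate block, fits of 18 or 27 libraries, no filter or a filter of 50, pseudocounts of 0.5 and 10, equal totals, quantile and TMM scaling, array weights, edgeR 4.0.16, DESeq2 1.42.0, each library left out, and the 2 libraries that stood apart left out together, the last chosen after seeing the data. The script was tested on simulated data.

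The 37 gene lists come from textbook knowledge. Members and lists were chosen with earlier results of these data known, and list counts and medians carry no test. Named genes were a panel, the 10 largest called differences each way with a group mean of 50 or more, the 5 strongest with opposite effects each way, up to 4 per list with the smallest p, and the 3 largest changes among genes of 1 line. Other list members are named to describe their list, and some items are not reported here.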

Additional observations from a re-analysis of the deposited data

Results flagged for a closer look

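The effect of 500 nM IPI-9119 differed between LNCaP95 and 22Rv1 at 3414 genes by the test of the difference itself. Among genes called in both lines with opposite signs, the 5 in each direction with the largest smaller effect were singled out.

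UGT2B4 differed by 4.50, PBLD by 2.86, AKR1C3 by 3.47, PRG4 by 2.05 and PLIN4 by 1.93 on the log2 scale, each up in LNCaP95 and down in 22Rv1. UGT2B4 and PRG4 averaged under 10 in LNCaP95 with DMSO and entered the test there through the treated libraries. The filter thus favoured a difference in that line, and their change there is no support. PRG4, which encodes lubricin, held 21.2, 22.6 and 14.3 normalised counts in LNCaP95 with 500 nM, against 9.68, 8.61 and 6.07 with DMSO, and 77.7, 69.6 and 62.8 in 22Rv1 with 500 nM, against 144, 131 and 118 with DMSO. The gene overlaps the antisense gene TPR. PLIN4 held 37.9, 31.9 and 36.8 in LNCaP95 with 500 nM, against 24.7, 10.96 and 27.3 with DMSO, and 25.9, 28.8 and 35.0 in 22Rv1 with 500 nM, against 73.8, 55.4 and 67.0 with DMSO. Its groups were apart in both lines. PBLD held 130.2, 133 and 124 in LNCaP95 with 500 nM, against 48.4, 57.1 and 46.3 with DMSO, and 469, 516 and 548 in 22Rv1 with 500 nM, against 1419, 1460.2 and 1534 with DMSO.

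COL2A1 differed by -3.07, P2RY1 by -2.85, DUSP5 by -2.51, DUSP4 by -1.94 and MAOA by -1.75, each down in LNCaP95 and up in 22Rv1. COL2A1 entered in LNCaP95 through its DMSO libraries and DUSP5 in 22Rv1 through its treated ones. P2RY1 held 146, 199.7 and 135 in LNCaP95 with 500 nM, against 735, 626 and 436 with DMSO, and 51.8, 55.2 and 62.8 in 22Rv1 with 500 nM, against 14.5, 42.1 and 37.1 with DMSO. DUSP4 held 15.7, 28.8 and 27.3 in LNCaP95 with 500 nM, against 59.0, 55.6 and 41.7 with DMSO, and 274, 263 and 252 in 22Rv1 with 500 nM, against 181, 139.6 and 131 with DMSO. All treated values of P2RY1 and DUSP4 lay outside the DMSO range in both lines.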

How the results depend on the processing

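The 3414 called differences numbered 2845 to 4778 under the other settings and 2761 to 3948 with a library left out, and no gene shared with the 3414 changed sign. Those higher ranged from 1320 to 1929 and those lower from 1427 to 2019 with a library left out. LNCaP95 calls then ranged from 4646 to 6220 and the 100 nM difference from 1725 to 2968. With libraries scaled to the same total, 58.1% of called differences were higher, against 49.2% as deposited, and the median of all differences rose by 0.060, and by 0.12 with no filter. The counts that rest on 22Rv1 moved most. The 141 genes with opposite effects became 326 with the replicate block and 475 with array weights, and ranged from 70 to 209 with a library left out; the count was 81, 70 and 89 without 22Rv1 replicate 1, 2 and 3 with 500 nM and 84 without 22Rv1 DMSO replicate 2. The 1456 genes called in 22Rv1 became 2567 with the block and 3182 with array weights, and ranged from 862 to 1780 with a library left out, with 862 and 882 without replicates 1 and 2 with 500 nM. The cause was not tested. Count tests on the recovered reads called 3512 differences with edgeR and 3660 with DESeq2. Without the 2 libraries that stood apart, 4867 genes were called in LNCaP95, 1064 in 22Rv1 and 106 with opposite effects.

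Correlations of same-numbered deviations were 0.335, 0.176 and 0.228 in LNCaP95, all past the 0.1 asked for pairing, but 0.250, 0.210 and 0.0656 in 22Rv1, so the numbers were not taken to pair the samples over both lines. As a hint from the data, all 6 LNCaP95 samples and 5 of 6 of 22Rv1 correlated best with their own number. With the block, 4355 differences were called, 3413 of them among the 3414. Of 146 named genes called, 118 lost the call under none of the 26 settings and 28 lost it under at least 1. Some of the 118 with low counts, among them UGT2B4, LURAP1L and ABCA1, had a result under 25 settings only. Of 34 not called, 14 were called under at least 1. FASN, ACLY, INSIG1 and SQLE lost the call only in the fit of 27 libraries, and ACACA there and after quantile normalisation. Low counts limit UGT2B4, CUZD1, LURAP1L, PRSS3, RPRML, COL2A1, BMX, GBX2 and ABCA1, where a few reads set the fold change.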
